A study of Mus musculus with 10 samples.

Results

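The gene IDs described here lie on both sides of Stip1 on mouse chromosome 19, the gene that carries the edited allele in these mice. They are the IDs of the count files that start within 5 Mb of the start of Stip1 (7020702, build GRCm38, GENCODE release M21) and have a mean count of 10 or more over the 10 libraries, without Stip1 and without symbols ending in os and a number. Of 53090 IDs in the files, 399 start in this window, 197 of them had any count, and 58 met the rule. No symbol in the window ends in os and a number (0 IDs), and Frmd8os, which ends in os alone, was kept. The IDs were chosen by their mean count over both genotypes, so their levels are given as description, while the genotype difference was not part of the rule.

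RNA came from a small piece of cortex of 10 mice on a C57BL/6 background, 5 wild type (wt/wt) and 5 homozygous for an allele of Stip1 without the TPR1 domain (dTPR/dTPR). Stip1 encodes STI1, a co-chaperone of HSP70 and HSP90. Wild-type animals were 442 to 663 days old and dTPR1 homozygous animals 541 to 630 days. No further allele or treatment is named for either group, and how the allele was made, its number of backcrosses and the sex of the animals are not given in the sources used here.

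When a gene is edited in cells of one mouse strain and the mice are then bred to another, the stretch of chromosome around the edited gene stays linked to it for many generations. Genes on such a stretch can carry alleles of the donor strain, and their RNA can then differ between mutant and wild type with no link to the edited gene's function. The comparison here asks whether the RNA counted at the neighbours of Stip1 differed between the genotypes. Counts per gene ID hold no sequence variants, so the origin of the chromosome itself was not read.

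Total counts per library ran from 667751 to 927242, so 3 counts, the upper limit that a 0 allows, corresponded to at most 4.49 CPM (counts scaled to a library total of 1e+06). These limits cover counting error only, since PCR copies were not told apart. The Stip1 ID had 0, 4, 0, 8 and 0 counts in the wild-type libraries and 0, 8, 0, 5 and 0 in the dTPR1 homozygous libraries (animals 1 to 5 each), too few to check the allele. The lists of general neuron markers and of oligodendrocyte markers had no counted ID opposite to them (0 of 5 each), and excitatory neurons had 1 of 5, at 0 to 52.8 CPM in wild type and 0 to 104.5 CPM in dTPR1 homozygous libraries, so the labelled cortex could be checked only in part. Inhibitory neuron markers, 2 of 5 with an ID, summed to 534.5 to 1801 CPM (median 825.2) in wild type and 424.0 to 1488 CPM (median 738.4) in dTPR1 homozygous libraries. Astrocyte markers, also 2 of 5, summed to 96.3 to 317.4 CPM (median 139.0) and 137.6 to 406.3 CPM (median 253.6). Striatal markers, of which 4 of 9 had an ID opposite and Drd1, Drd2 and Adora2a were among those with none, summed to between 803.3 and 5306 CPM (median 2511) in wild type and between 388.3 and 2189 CPM (median 874.9) in dTPR1 homozygous libraries. Of the oligodendrocyte precursor markers 3 of 4 had an ID, but Pdgfra and Cspg4 had no counts, so their sum is that of Bcas1 and Gpr17 alone. It lay between 842.3 and 1581 CPM (median 1222) in wild type and between 1375 and 2291 CPM (median 1946) in dTPR1 homozygous libraries. The part of these lists in the results below was not tested. Wild-type animals 2 and 3 had the highest striatal sums, and values without them are given below. In bulk tissue, fewer cells of a type and less RNA per cell cannot be told apart.

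Most of the 58 IDs appear to count RNA of the gene on the other strand. Malat1, a nuclear long non-coding RNA abundant in many cells, had 0 counts in all 10 libraries at its own ID, and so did Neat1, its neighbour. Gm37376, an ID of 453 exon bases that lies wholly opposite to the single exon of Malat1, had a mean count of 20.2. Of the 58 IDs, 45 faced at least 1 exon base of an opposite-strand gene (77.6%, against 79.5% of the 3100 IDs of the series with a mean count of 10 or more), and they held 95.3% of the counts of the 58. Another 8 lay within 5 kb downstream of an opposite-strand gene, 1 (Lrfn4) faced an intron only, and 4 (Brms1, Ccdc88b, Mta2 and Olfr1417) had no annotated gene opposite. An opposite-strand gene, meaning one with a share of 90% or more of an ID's facing exon bases, could be named for 37 IDs. All counts of an ID are credited to that gene, also those outside the shared bases. The 3′ end of the opposite-strand gene, and not its 5′ end, lay inside 19 of these 37 IDs (51.4%, against 46.7% of 2138 such IDs of the series), and the 5′ end alone inside 8.

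The sequence below is shown because the ID with most counts, Gm14964, faces it. It runs along the coding strand of Nrxn2 at chr19:6531745-6532011 (GRCm38, plus strand, read from GENCODE M21 transcripts), inside a coding stretch of an Nrxn2 exon (6531268 to 6533217), with the 207 bases opposite to exons of Gm14964 in capitals.
Nrxn2: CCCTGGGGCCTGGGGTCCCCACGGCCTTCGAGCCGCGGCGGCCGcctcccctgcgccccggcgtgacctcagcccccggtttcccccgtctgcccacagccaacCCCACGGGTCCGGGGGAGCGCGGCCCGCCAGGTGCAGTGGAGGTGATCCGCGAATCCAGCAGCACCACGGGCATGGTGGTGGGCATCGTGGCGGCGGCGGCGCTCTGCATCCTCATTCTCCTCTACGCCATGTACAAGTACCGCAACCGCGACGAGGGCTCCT
The sequence of Malat1 below (chr19:5802334-5802453, minus strand) spans an edge of Gm37376, and its 60 bases opposite to that ID are in capitals.
Malat1: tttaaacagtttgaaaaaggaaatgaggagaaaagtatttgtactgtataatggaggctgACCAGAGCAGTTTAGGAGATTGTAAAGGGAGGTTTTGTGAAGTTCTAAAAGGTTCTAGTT

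Counts were unevenly spread over the 58 IDs, from a mean of 10.4 at Ehbp1l1 to 2734 at Gm14964. The single ID Gm14964 held 34.9% of their counts, and the 5 with most counts, Gm14964, Slc15a3, Bscl2, Rad9a and Gm21844, held 67.6%. Just inside the count rule lay Ehbp1l1 (10.4) and Fads3 (10.6), and just outside it Zdhhc24 (9.6) and Esrra (9.4). The IDs lie from 3.25 Mb below the Stip1 start (Kmt5b) to 4.81 Mb above it (Olfr1417), 39 below and 19 above, and the nearest ID outside the window with enough counts is Mpeg1, 5.44 Mb above. Between Mark2, 0.255 Mb above Stip1, and Gm22820, 1.66 Mb above, there are 26 further IDs, and the highest mean count among them was 6.8, so that stretch is hardly covered.

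**Figure D1:**
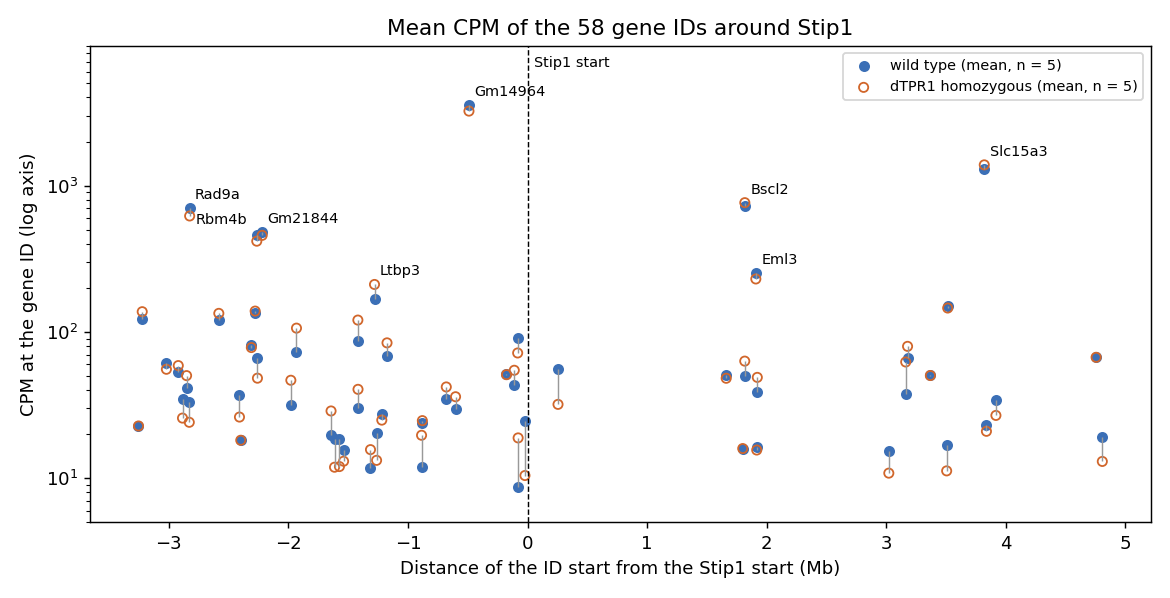
Mean CPM of each of the 58 gene IDs (log axis) against the distance of its start from the Stip1 start in Mb, filled points for wild type and open points for dTPR1 homozygous cortex (5 libraries each), joined by a line for each ID. Gm14964 stands highest at 3570 and 3228 CPM, and no ID lies between 0.255 and 1.66 Mb above Stip1.

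In 9 pairs the IDs face each other and both are among the 58, so each strand has its own count. The ID with more counts was the same in all 10 libraries in 8 of the 9 pairs, and in 6 of 10 libraries for Batf2 and Arl2. The widest gap was at Slc15a3, with a mean count of 1060 against 16.9 at Tmem132a. Read as the opposite strand, the larger value belongs to Tmem132a, a membrane protein gene of neural tissue, and the smaller one to Slc15a3, a peptide and histidine transporter gene of immune cells. Bscl2, which encodes seipin of lipid droplets, was counted 599.3 times on average and Gng3, a G protein gamma subunit gene of neurons, 44.5 times; in the same reading the larger value is that of Gng3. Gm16066, an antisense ID opposite to the histone methyltransferase gene Kmt5b, had a mean of 103.0 against 17.8 at Kmt5b itself. In 2 pairs the larger count stood at the ID whose opposite is a predicted gene: Rbm4b (349.7) against Gm37206 (45.9), and Eml3 (191.8) against Gm10353 (13.2). For these the gene behind the larger count is not certain. The IDs of a pair differ in exon length, and the counts above are not scaled for it. Per kb of exon the gap was narrower at Eml3 (46.7 against 20.6 at Gm10353) and wider at Gm16066 (94.8 against 1.21 at Kmt5b).

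**Figure D2:**
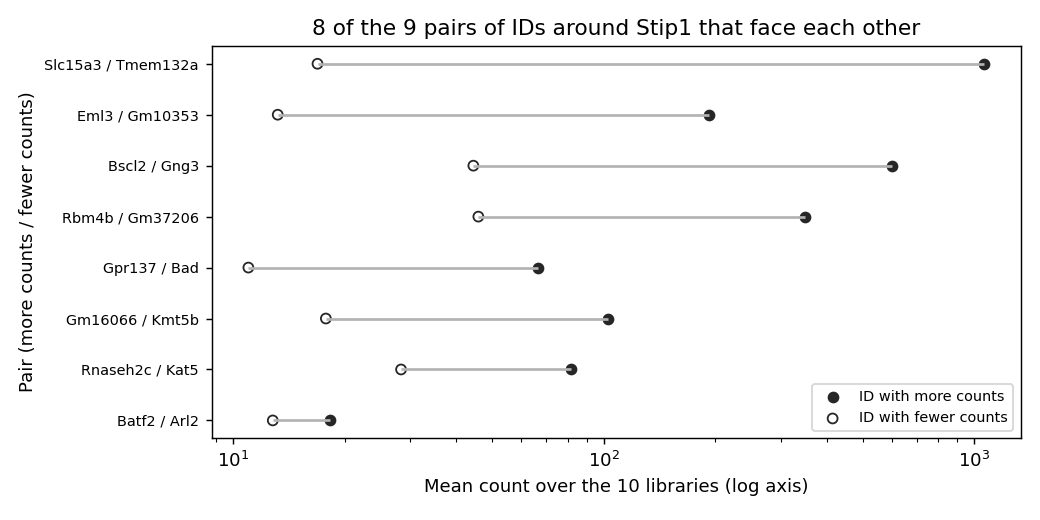
Mean count over the 10 libraries (log axis) for 8 of the 9 pairs of IDs that face each other, with the ID that had more counts as a filled point and the other as an open point. The gap in counts, not scaled for exon length, runs from 62.7 times for Slc15a3 against Tmem132a to 1.43 times for Batf2 against Arl2.

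Genotype made no detectable difference at any of these IDs after correction. Of the 58, 54 passed the filter on low counts and were tested, and Bad, Cpsf7, Ehbp1l1 and Fads3 were not. In edgeR's quasi-likelihood test, 0 of the 54 had an adjusted p under 0.05, as 0 of all 3027 tested IDs did (0.0%), with 0.997 as the lowest value. Unadjusted, 0 of 54 lay under 0.05 as well, where 2.54% of all tested IDs did. DESeq2 and limma-voom each called 0 after adjustment and had 1 of the 54 at an unadjusted p under 0.05 (Fermt3 and Fads1). Of all 3027 tested IDs, 103 with DESeq2 and 125 with limma-voom had one. Positive fold changes (dTPR1 homozygous over wild type) were found at 26 and negative ones at 28, so 48.1% were positive against 52.1% of all tested IDs. The median log2 fold change was -0.0042 over the 54 and 0.017 over all tested IDs. At 0 of the 54 did the 5 values of one genotype all lie beyond those of the other, which occurred at 0.429% of all tested IDs.

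The precision differed widely between the IDs. The 95% interval of the fold change lay within 2-fold in either direction for 18 of the 54 (33.3%, against 34.2% of all tested IDs), so for these a change of 2-fold lay outside the interval. The median standard error (SE) was 0.46 on the log2 scale. For the other 36, the interval included a change of 2-fold in at least 1 direction.

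**Figure D3:**
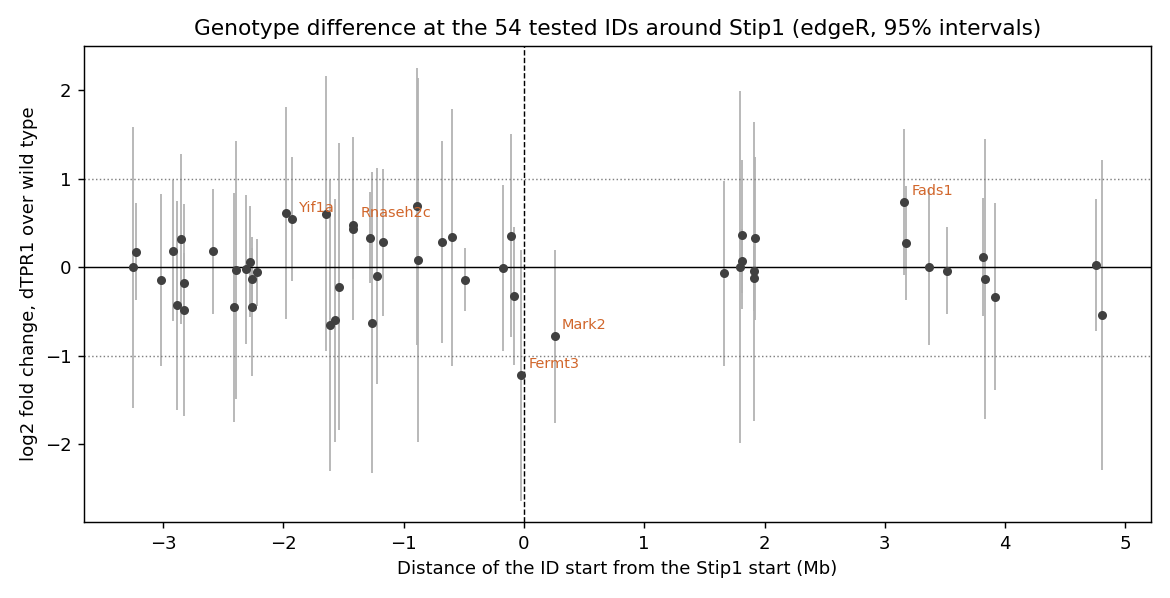
Log2 fold change (dTPR1 homozygous over wild type, edgeR) of the 54 tested IDs against their distance from the Stip1 start in Mb, with 95% intervals as bars and dotted lines at 2-fold. Every interval includes 0, and the lowest points, Fermt3 and Mark2, lie beside Stip1.

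The IDs nearest to Stip1 were read first, since a linked stretch would hold them in any case. Within 500 kb of the Stip1 start lie 42 IDs, of which 28 had any count and 7 met the rule. Fermt3 starts 21.7 kb below Stip1 and faces Trpt1, a tRNA 2′-phosphotransferase gene, over 89 bases. It stood at 31.98, 12.9, 12.5, 22.5 and 43.0 CPM in wild-type animals 1 to 5 and at 14.9, 11.5, 14.5, 8.65 and 2.64 CPM in dTPR1 homozygous animals 1 to 5. Wild-type animals 1, 4 and 5 lay above every dTPR1 homozygous library and the groups overlapped through wild-type animals 2 and 3. The log2 fold change of Fermt3 was -1.21 ± 0.67 (SE), with an unadjusted p = 0.0866 and an adjusted p = 0.997 in edgeR. It was the lowest of the 54 and rests on a mean of 14.0 counts. Without wild-type animals 2 and 3 it was -1.61, with an unadjusted p = 0.0346 and an adjusted p = 0.997 in edgeR.

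Mark2 encodes a microtubule affinity-regulating kinase, and its ID lies downstream of Rcor2, a gene of the REST corepressor family. Its values were 44.5, 32.4, 78.2, 49.4 and 73.8 CPM in the wild-type group and 60.7, 10.04, 18.9, 41.1 and 29.1 CPM in dTPR1 homozygous animals. The 3 lowest libraries were dTPR1 homozygous animals 2, 3 and 5, while animals 1 and 4 lay within the wild-type range. At Mark2 the log2 fold change was -0.78 ± 0.47 (unadjusted p = 0.111 in edgeR), the second lowest of the 54. With 1 library left out it ran from -1.12 (without dTPR1 homozygous animal 1) to -0.56 (without dTPR1 homozygous animal 2). The fit without animal 1 had an unadjusted p = 0.0342 in edgeR and was picked after the values were seen. The smallest adjusted p of the IDs around Stip1 in it was 0.999 in edgeR. The lowest and second lowest values thus belong to the tested IDs next to Stip1 on its lower and upper side. This was seen after the values were known and was not tested. On the lower side, the next tested IDs were Gpr137, Trmt112 and Ccdc88b, with log2 fold changes of -0.32, 0.36 and -0.01. Bad starts nearer to Stip1 than these, 78.8 kb below it, but was not tested. All 5 dTPR1 homozygous values of Bad lay above its wild-type mean of 8.67 CPM. On the upper side no further ID met the count rule before Gm22820, 1.66 Mb above Stip1, so an extension to that side could not be read.

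Gpr137 starts 82.6 kb below Stip1 and faces Bad, a gene of the BCL2 family that promotes cell death, over 524 bases. It was counted at 82.0, 82.0, 49.9, 47.9 and 189.5 CPM in the wild-type group and at 91.7, 64.5, 52.2, 79.0 and 71.3 CPM in dTPR1 homozygous cortex. Wild-type animal 5 stood far above all others, and without it the log2 fold change of Gpr137 turned from -0.32 ± 0.37 to 0.12. Bad, which faces Gpr137 and was not tested, had 3, 6, 0, 13 and 12 counts in wild type and 8, 7, 18, 36 and 7 in dTPR1 homozygous animals. Trmt112, opposite to the peroxiredoxin gene Prdx5 and to Esrra, had group means of 43.2 ± 29.2 and 54.6 ± 25.5 CPM (SD, n = 5 each). Ccdc88b, with no gene opposite, stood at 51.6 ± 21.3 and 51.0 ± 23.8 CPM.

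Genes listed under synapse, neurotransmission and ion channels were opposite to 8 IDs. These include Hnrnpul2, which lies downstream of such a gene, and the untested Bad, which faces Gpr137, a gene of that list. The genes came from a list of region genes by role written with earlier results of these data known. Of the 8 IDs, 7 were tested, 5 with positive and 2 with negative fold changes, and their median was 0.0076. Nrxn2 encodes neurexin 2, a presynaptic adhesion protein, and was read at Gm14964, whose facing bases are printed above. Its values were 4107, 4730, 2683, 3239 and 3091 CPM in wild-type animals 1 to 5 and 3404, 2664, 2951, 3779 and 3341 CPM in dTPR1 homozygous animals 1 to 5. The groups overlapped in part, and wild-type animals 1 and 2 lay above every dTPR1 homozygous library. In edgeR, the log2 fold change at Gm14964 was -0.14 ± 0.17, with a 95% interval of -0.50 to 0.22, and it was 0.0064 without wild-type animal 2. Per kb of exon, Gm14964 had 3597 counts, against 225.0 at Rad9a and 193.0 at Slc15a3. The ID of Nrxn2 itself, which faces Slc22a12 and Gm14964, stood at 29.7 ± 25.9 and 36.0 ± 9.1 CPM.

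Gng3 was read at Bscl2, which starts 1.82 Mb above Stip1 and shares 398 bases with it. Bscl2 stood at 611.8, 911.3, 610.7, 700.9 and 817.7 CPM in the wild-type group and at 625.7, 787.1, 829.9, 829.6 and 747.6 CPM in dTPR1 homozygous animals. The dTPR1 homozygous values lay inside the wild-type range, and the log2 fold change was 0.07 ± 0.17 (95% interval -0.29 to 0.43; -0.013 without wild-type animal 1). Cnih2 encodes cornichon 2, an auxiliary subunit of AMPA receptors, and Yif1a, which faces it over 14 bases, stood at 76.5, 79.8, 86.1, 38.9 and 84.9 CPM in the wild-type group and at 65.7, 100.4, 91.4, 181.7 and 91.1 CPM in dTPR1 homozygous animals. At Yif1a, 4 of 5 dTPR1 homozygous animals lay above the wild-type mean, animal 4 far above. The log2 fold change was 0.54 ± 0.33 (unadjusted p = 0.120 in edgeR; 0.24 without dTPR1 homozygous animal 4).

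Chrm1, the M1 muscarinic receptor gene, was read at the small RNA ID Gm22820, 1.66 Mb above Stip1, at 48.7, 25.9, 69.1, 31.4 and 79.3 CPM in the wild-type group and 79.3, 7.17, 58.04, 35.7 and 60.8 CPM in dTPR1 homozygous animals. The groups covered the same range, apart from the low value of dTPR1 homozygous animal 2. In edgeR, the log2 fold change of Gm22820 was -0.07 ± 0.50 and turned to 0.20 without that animal, to 0.14 without wild-type animal 5, to 0.075 without wild-type animal 3 and to 0.020 without dTPR1 homozygous animal 4. Synaptotagmins, which sense calcium in membrane fusion, were read at Gm26859 (Syt7, log2 fold change 0.0076 ± 0.42) and at A930001C03Rik (mainly Syt12, 0.18 ± 0.34). Hnrnpul2, downstream of Gng3, was at 0.0037 ± 0.95.

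Genes of RNA and transcription were opposite to 7 IDs, counting Mark2 above, which faces no exon and lies downstream of Rcor2. All 7 were tested, with positive fold changes at 2 and negative ones at 5 and a median of -0.06. Rbm14, a paraspeckle RNA-binding protein gene, was read at Gm21844, where 349 bases face it. Gm21844 stood at 485.3, 465.9, 386.3, 569.1 and 490.4 CPM in the wild-type group and at 427.5, 574.9, 364.2, 553.8 and 363.3 CPM in dTPR1 homozygous animals. Both genotypes held high and low libraries, and the log2 fold change was -0.06 ± 0.18 (0.0079 without dTPR1 homozygous animal 3 and 0.011 without animal 5). Kat5, the gene of the acetyltransferase TIP60, was read at Rnaseh2c, at 77.9, 79.8, 45.3, 145.3 and 88.2 CPM in the wild-type group and 137.5, 107.5, 127.7, 115.7 and 113.6 CPM in dTPR1 homozygous animals. All 5 dTPR1 homozygous values at Rnaseh2c lay above 4 of the wild-type values, and wild-type animal 4 was the highest of all 10. The log2 fold change was 0.48 ± 0.29 (unadjusted p = 0.114 and adjusted p = 0.997 in edgeR), and it was 0.25 without wild-type animals 2 and 3. With 1 library left out it ran from 0.32 (without wild-type animal 3) to 0.72 (without wild-type animal 4). The latter fit had an unadjusted p = 0.0229 in edgeR and was picked after the values were seen. The smallest adjusted p of the IDs around Stip1 in it was 0.999 in edgeR.

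Cpsf7, a gene of pre-mRNA 3′ end processing, was read at Tmem216, at 151.6, 168.2, 190.3, 131.8 and 106.9 CPM in the wild-type group and 146.2, 180.7, 126.2, 138.4 and 136.1 CPM in dTPR1 homozygous animals. Wild-type animals 3 and 5 were the highest and the lowest of all, and the log2 fold change was -0.04 ± 0.23 (0.066 without wild-type animal 3, 0.022 without wild-type animal 2). Malat1, read at Gm37376, stood at 27.4 ± 17.0 and 24.9 ± 15.4 CPM. Gm16066, which reads Kmt5b, was at a log2 fold change of 0.18 ± 0.26, and Gm37206, which reads Rbm4b, at -0.44 ± 0.37.

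Genes of membrane traffic, the cytoskeleton, kinases and signalling were opposite to 7 IDs, all tested, 2 with positive and 5 with negative fold changes and a median of -0.17. Ppp1ca, the gene of a catalytic subunit of protein phosphatase 1, was read at Rad9a, which faces its 3′ end over 225 bases. Rad9a stood at 682.7, 612.6, 758.0, 715.8 and 750.4 CPM in the wild-type group and at 771.9, 511.8, 535.4, 656.5 and 622.2 CPM in dTPR1 homozygous animals. Animals 2 and 3 of the dTPR1 homozygous group were the lowest, while animal 1 was the highest of all 10. In edgeR, the log2 fold change was -0.17 ± 0.16, and its 95% interval of -0.51 to 0.16 goes with the smallest SE of the 54. Also in this group were Mus81 (Efemp2, -0.22 ± 0.77), Batf2 (Arl2, 0.08 ± 0.97), Gm10353 (Eml3, -0.04 ± 0.81) and Gpr137, given above.

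Genes of mitochondria and metabolism were opposite to 5 IDs, counting Fads3, which lies downstream of such a gene. Of the 5 IDs, 4 were tested, 2 with positive and 2 with negative fold changes and a median of 0.11. Fermt3 and Trmt112 are given above. Gng3, which reads Bscl2, was at 0.37 ± 0.40 and Gm16312, which reads the hydrolase gene Nudt8, at -0.14 ± 0.46. Fads3, downstream of the fatty acid desaturase gene Fads2, was not tested.

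A further 30 IDs had an opposite gene whose symbol was in none of the lists, or none at all. Lrfn4 and Rce1, at the metabolic gene Pcx, are among them for the reason given above. Of these 28 were tested, 14 with positive and 14 with negative fold changes and a median of 0.014. Slc15a3 reads Tmem132a, with 1541 facing bases, and stood at 1105, 787.3, 694.5, 1817 and 2079 CPM in the wild-type group and 1572, 754.2, 1917, 1289 and 1392 CPM in dTPR1 homozygous animals. Wild-type animals 3 and 2 and dTPR1 homozygous animal 2 were the lowest, and wild-type animal 5 was the highest. In edgeR, the log2 fold change of Slc15a3 was 0.12 ± 0.31, and it was -0.24 without wild-type animals 2 and 3, -0.039 without wild-type animal 3 alone, -0.013 without wild-type animal 2 and -0.027 without dTPR1 homozygous animal 3.

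Gm21992, a predicted gene that overlaps Rbm14 and Rbm4 on their strand, faces Gm21844 over 255 bases. It stood at 115.4, 94.9, 82.7, 182.7 and 198.4 CPM in the wild-type group and at 179.7, 70.3, 158.1, 142.8 and 142.7 CPM in dTPR1 homozygous animals. Here too wild-type animals 2 and 3 and dTPR1 homozygous animal 2 were the lowest. The log2 fold change of Gm21992 was 0.06 ± 0.30, -0.22 without wild-type animals 2 and 3, -0.068 without wild-type animal 3, -0.033 without wild-type animal 2, -0.0066 without wild-type animal 1 and -0.035 without dTPR1 homozygous animal 1.

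Rbm4b, an RNA-binding protein gene whose opposite is the predicted Gm37206, stood at 602.0, 401.2, 410.1, 447.8 and 447.4 CPM in the wild-type group and 498.1, 361.3, 377.2, 416.4 and 430.6 CPM in dTPR1 homozygous animals. Animal 1 was the highest of its group in both genotypes, and the log2 fold change of Rbm4b was -0.13 ± 0.17. Eml3, a microtubule-associated protein gene with Gm10353 opposite, stood at 301.7, 235.1, 251.5, 251.6 and 223.7 CPM in the wild-type group and at 205.7, 223.7, 248.1, 236.9 and 235.1 CPM in dTPR1 homozygous animals. All 5 dTPR1 homozygous values of Eml3 lay below the wild-type mean of 252.7 CPM, yet the groups overlapped, and the log2 fold change was -0.12 ± 0.18.

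**Figure D4:**
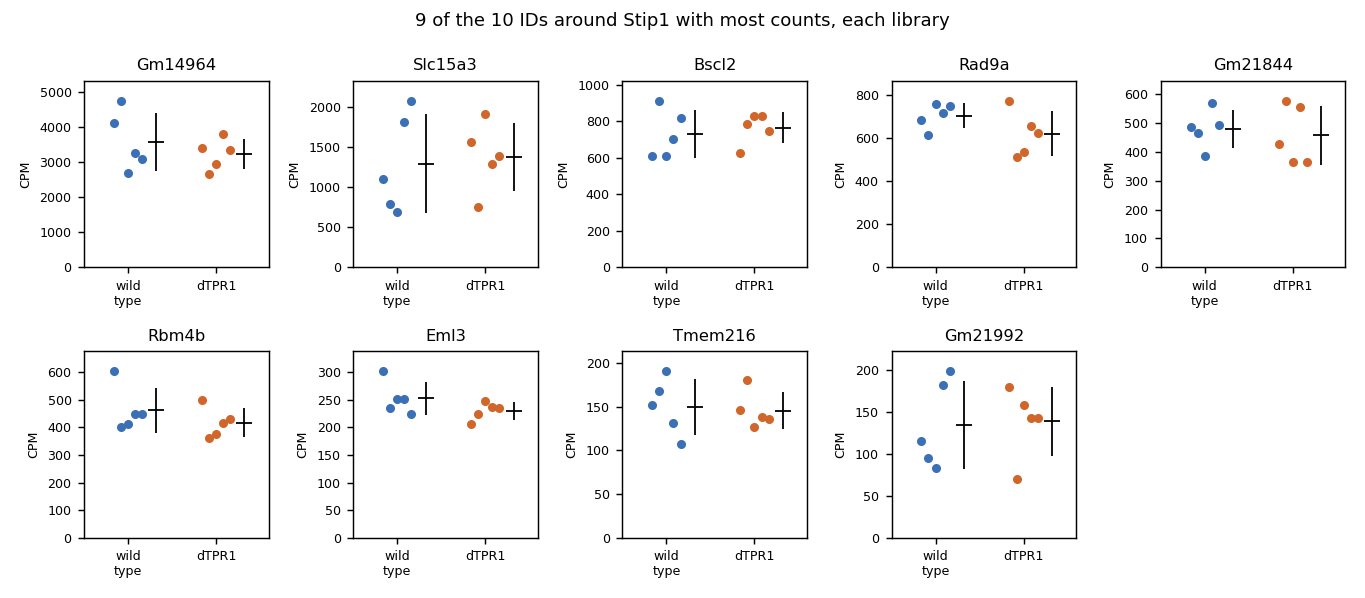
CPM of 9 of the 10 IDs with most counts in each library, 5 wild-type points and 5 dTPR1 homozygous points in the order of the animal numbers, with mean and SD beside them. The groups overlap in every panel, and Slc15a3 spreads widely, from 694.5 to 2079 CPM.

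Fen1, the gene of a flap endonuclease of DNA replication, was covered by Gm10143, which faces it over 1909 bases, and by Fads1, which lies within 5 kb downstream of it. Fads1 had the smallest p of the 54: it stood at 22.2, 23.7, 31.7, 41.9 and 68.3 CPM in wild-type animals 1 to 5 and at 83.0, 44.4, 59.5, 53.0 and 71.3 CPM in dTPR1 homozygous animals 1 to 5. Wild-type animals 1 to 4 lay below every dTPR1 homozygous library, and wild-type animal 5 lay among them. In edgeR, the log2 fold change of Fads1 was 0.74 ± 0.39 (unadjusted p = 0.0752, adjusted p = 0.997 in edgeR), higher than the wild-type mean in 5 of 5 animals. With 1 library left out it ran from 0.59 (without wild-type animal 1) to 1.05 (without wild-type animal 5), and leaving out wild-type animals 2 and 3 gave 0.52. The fit without wild-type animal 5 had an unadjusted p = 0.0177 in edgeR and was picked after the values were seen. The smallest adjusted p of the IDs around Stip1 in it was 0.997 in edgeR. Gm10143 had means of 66.1 ± 10.9 CPM in the wild-type group and 79.6 ± 23.1 CPM in dTPR1 homozygous cortex and a log2 fold change of 0.28 ± 0.31. The start of Fads1 is 3.16 Mb from that of Stip1, so this ID is not among the near neighbours.

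**Figure D5:**
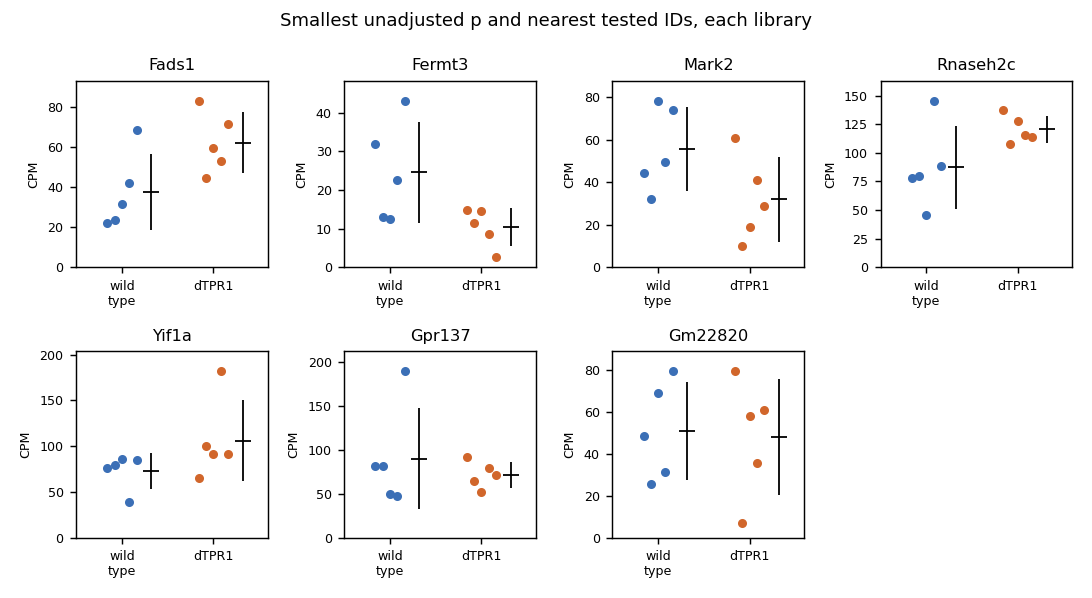
CPM in each library of the 5 IDs with the smallest unadjusted p (Fads1, Fermt3, Mark2, Rnaseh2c, Yif1a) and of the further tested IDs nearest to Stip1 (Gpr137, Gm22820), 5 points for each genotype in the order of the animal numbers, with mean and SD. In every panel at least 1 library of one genotype lies within the range of the other.

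Low-count IDs among the 30 had wide errors. After Fads1, the largest fold changes there were at 4930481A15Rik (-0.65 ± 0.78, opposite to Gm6293 and Drap1), Brms1 (0.61 ± 0.57), Sart1 (0.60 ± 0.74), Fosl1 (opposite to Ccdc85b, -0.59 ± 0.66) and Arl2 (opposite to Batf2, 0.68 ± 0.75), each at most 1.07 times its SE. Kat5, which reads Rnaseh2c, was at 0.44 ± 0.49, Lrfn4, in an intron of the pyruvate carboxylase gene Pcx, at -0.45 ± 0.62, and Rce1, downstream of Pcx, at -0.03 ± 0.69. Ppp1ca and Cabp4, opposite to Rad9a and Gpr152, were at -0.48 ± 0.57 and -0.43 ± 0.56, and Olfr1417, the farthest ID, at -0.53 ± 0.83. The others with opposite genes were Gm17552 (Carns1), Frmd8os (Frmd8), Map4k2 (Gm14966), Ptgdr2 (Ccdc86), Tmem132a (Slc15a3), Kmt5b (Gm16066), Stx3 (downstream, Mrpl16) and the untested Cpsf7 (Tmem216) and Ehbp1l1 (downstream, Map3k11). With Mta2, which has no gene opposite, their tested log2 fold changes ran from -0.33 at Ptgdr2 to 0.33 at Mta2.

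The median fold change showed no steady trend with distance from Stip1, although the lowest and second lowest values, at Fermt3 and Mark2, lay within 1 Mb of it. Within 1 Mb, 10 IDs were tested, 5 with positive and 5 with negative values and a median of 0.04. From 1 to 2.5 Mb there were 26, 12 positive and 14 negative, with a median of -0.03, and from 2.5 to 5 Mb 18, 9 positive and 9 negative, with a median of 0.0036. In each of these windows 0 IDs had an unadjusted p under 0.05. Among IDs of chromosome 19 with the same mean count more than 10 Mb away, 42 were tested, 21 in each direction, with a median of 0.0018 and 1 at an unadjusted p under 0.05. IDs of the same window differ in depth and share the libraries, so these medians are a description.

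Leaving out wild-type animals 2 and 3, which had the highest striatal sums, moved the log2 fold changes of several IDs by over 1.5 times or turned them. It took Gpr137 from -0.32 to -0.55, Rbm4b from -0.13 to -0.22, Gm21844 from -0.06 to -0.14, Gm22820 from -0.07 to -0.11 and Bscl2 from 0.07 to 0.14. Smaller values were left at Gm14964 (from -0.14 to -0.07), and the sign turned at Tmem216, from -0.04 to 0.20, as it did at Slc15a3 and Gm21992 above. Yif1a went from 0.54 to 0.70, and Mark2 stood at -0.76, Rad9a at -0.17 and Eml3 at -0.13 without these animals.

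Summed over the 58 IDs, the region took 10709, 10378, 7903, 10306 and 10394 CPM in wild-type animals 1 to 5 and 10165, 8367, 9712, 10422 and 9763 CPM in dTPR1 homozygous animals 1 to 5. The means were 9938 ± 1148 and 9686 ± 793 CPM (SD, n = 5 each), a difference of -251.8 CPM, which is less than the SD of either group. Wild-type animal 3 lay lowest, and without it the difference was -760.7 CPM, while without dTPR1 homozygous animal 2 it turned to 77.8 CPM. Without wild-type animals 2 and 3 together it was -783.6 CPM. Gm14964 alone held 34.9% of the counts behind this sum.

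The spread between libraries was itself uneven. Among the 12 IDs with a mean count of 100 or more, the coefficient of variation over the 10 libraries ran from 10.6% at Eml3 to 37.6% at Slc15a3 and 38.9% at A930001C03Rik. Rad9a and Bscl2 had 13.8% and 14.2%, although Slc15a3 was counted more often than either. Counts of 0 in at least 1 library were found at 12 of the 58 IDs, while 46 were counted in all 10. Wild-type animal 3 gave the lowest value at 12 of the 58 IDs and dTPR1 homozygous animals 2 and 5 at 9 each, while wild-type animal 1 gave the highest at 10.

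Counts summed per opposite-strand gene were fitted too, which is no separate evidence, since most such genes hold the same counts as their ID. Of the 37 such genes, 36 were tested, with 14 positive and 22 negative fold changes (38.9% positive, against 50.3% of all opposite-strand genes tested), a median of -0.07 and 0 with an adjusted or unadjusted p under 0.05 in edgeR. Over all 2021 opposite-strand genes tested, 0 passed the adjusted threshold (0.0%), 2.82% had an unadjusted p under 0.05 and the median was 0.0024. For 4 of the 37 (Cpsf7, Fen1, Gm14966 and Nrxn2) counts of a further ID were added. No fold change moved by more than 0.041 from that of the ID.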

How the data were processed

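The deposited values are raw read counts per Ensembl gene ID, 1 file for each library, with 0 rows that name no gene. The build was GRCm38.p5 and the tools named were TopHat, HTSeq and DESeq2, per the submitters' processing notes; versions, the strand setting and the annotation release are not given in the sources used here. Per the labels' protocols, single-end libraries were made with a SENSE Total RNA-Seq kit after TRIzol extraction.

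Positions, symbols and exons came from GENCODE M21 (GRCm38), in which 52403 of 53090 IDs were found. Exons of all transcripts were merged per gene before IDs were set against genes of the other strand. Without the authors' strand setting, this reading is inferred from positions and counts, and where genes overlap, reads of both strands could not be separated.

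Genotype was tested over all IDs with edgeR 4.0.16 in R 4.3.3 (TMM, filterByExpr, robust quasi-likelihood, no covariates, Benjamini-Hochberg, threshold 0.05). The same fit was run on opposite-strand sums. Intervals and SE come from the quasi-likelihood F statistic. CPM use library totals, and ± is the SD unless given as SE. The p-values test the genotype difference against the spread between 5 animals a group, as estimated with information shared over all tested IDs.

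Chosen for values in every library were the 10 IDs with most counts, the 5 with the smallest p, the nearest 2 tested IDs on each side of Stip1, and any whose groups did not overlap (0). The members and lists were chosen with earlier results of these data known. Of the cell type lists, those of striatum, neurons (general, excitatory, inhibitory), astrocytes, oligodendrocytes and their precursors are reported. Alternatives were other scalings, filters and tools (DESeq2 1.42.0, limma 3.58.1), age, animal number, libraries left out, and other windows and count minimums. The fit was tested on simulated counts for the genotype comparison of 3027 IDs and recovered 2.99% of 1.5-fold, 11.9% of 2-fold and 56.1% of 4-fold changes. Some results are not reported here, 1 of the 17 IDs chosen for values in every library among them.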

Additional observations from a re-analysis of the deposited data

Results flagged for a closer look

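In 36 groups of 5 values (the summed CPM and the 17 IDs chosen for values in every library, for each genotype), 4 had a single library far from the others, where chance alone gives about 1 in 20, or 1.8. Wild-type animal 3 had the lowest summed CPM of the 58 IDs in its group, 7903. Wild-type animal 1 was highest at Rbm4b, with 602.0 CPM. At Yif1a, wild-type animal 4 was lowest, with 38.9 CPM. Gpr137 was highest in wild-type animal 5, with 189.5 CPM. The groups share the same 10 libraries, and whether 4 is an excess was not tested.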

How the results depend on the processing

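The 0 calls among the IDs around Stip1 held under every alternative tried, also without a filter, where their smallest adjusted p was 0.329 in edgeR; elsewhere edgeR then called 2 IDs and 2 opposite-strand genes of the whole series. IDs around Stip1 at an unadjusted p under 0.05 numbered 0 of 54 in the reported fit (77 of all 3027 tested IDs). There was 1 of 54 with DESeq2 (103 of 3027 in all), with limma-voom (125 of 3027) and with age in the model (84 of 3027). Without wild-type animals 2 and 3 there was 1 of 56 (78 of 3386). With each library left out there were 0 to 2. The 2 were found without dTPR1 homozygous animal 1, where 58 IDs around Stip1 were tested (99 of 3160 in all). Their median log2 fold change ran from -0.039 to 0.058 with 1 library left out, and was -0.078 without wild-type animals 2 and 3, 0.069 in a window of 2 Mb and -0.00028 in one of 10 Mb. The summed difference ran from -760.7 to 77.8 CPM with 1 library left out and was -604.0 without mitochondrial IDs. Of 354 recomputed fold changes of the 17 IDs chosen for values in every library, 333 kept their sign. Without wild-type animals 2 and 3 the sign turned at Tmem216 (0.20), Slc15a3 (-0.24) and Gm21992 (-0.22). With 1 library left out it turned at 8 of the 17, whose values ran from -0.16 to 0.066 at Tmem216, -0.039 to 0.34 at Slc15a3, -0.068 to 0.23 at Gm21992, -0.16 to 0.011 at Gm21844, -0.22 to 0.0064 at Gm14964, -0.48 to 0.12 at Gpr137, -0.30 to 0.20 at Gm22820 and -0.013 to 0.18 at Bscl2. Over all 54 tested IDs it turned at 26, and the cause was not tested. The labels do not say whether animal numbers pair the libraries. Same-numbered libraries correlated at -0.092 to 0.12 and 2 of 5 wild-type libraries correlated best with their own number, which is too few libraries to decide it. With animal number as a replicate block there were 0 calls and a median of 0.0059. A 2-fold change lay outside the interval at 18 of 54; how much of the width comes from depth and how much from spread between animals was not tested.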

Other observations

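Slc15a3 and Gm21992, which start 6.10 Mb apart on either side of Stip1, ordered the libraries alike, a pattern chosen after the values were seen and not tested. Wild-type animals 2 and 3 and dTPR1 homozygous animal 2 were the lowest 3 libraries at both, at 694.5 to 787.3 CPM at Slc15a3 and 70.3 to 94.9 CPM at Gm21992, and wild-type animal 5 was the highest at both, at 2079 and 198.4 CPM. The striatal markers summed to 3445 and 5306 CPM in wild-type animals 2 and 3 and to 1699 CPM in dTPR1 homozygous animal 2, against 803.3 CPM in wild-type animal 5. Wild-type animal 4, with 2511 CPM of striatal markers, was high at both IDs, at 1817 and 182.7 CPM, and dTPR1 homozygous animal 5, with 2189 CPM, stood between, at 1392 and 142.7 CPM.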
